A study of Mus musculus with 12 samples.

Results

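The genes described here are 9 components of cyclic AMP (cAMP) signalling, out of 13207 genes measured by RNA sequencing in sorted mouse thymocytes: the adenylyl cyclase Adcy7, the phosphodiesterases Pde3b, Pde4b, Pde4d and Pde7a, the protein kinase A (PKA) subunits Prkar1a and Prkacb, and the transcription factors Creb1 and Crem. They were taken by name. Every mouse was C57BL/6, received tamoxifen at 10 μg per g of body weight by intraperitoneal injection in olive oil, and gave its thymus on day 7. CD4+ cells were sorted by tdTomato, a label carried by recently generated cells, by green fluorescent protein (GFP), the reporter of the regulatory T cell (Treg) gate, and by CD73, the ecto-enzyme encoded by Nt5e. The 4 groups held 3 libraries each, lettered A, B and D: newly generated conventional T cells (Tconv; tdTomato+GFP-CD73-), CD73- newly generated Treg (tdTomato+GFP+CD73-), CD73+ newly generated Treg (tdTomato+GFP+CD73+), and tdTomato- Treg (tdTomato-GFP+), a bulk gate not divided by CD73. The sources used here do not give the Cre driver, the age of the mice, or whether each library had its own animal, and the p-values cover only library-to-library spread, part of which may be technical.

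Cyclic AMP is made from ATP by adenylyl cyclases, most of which are switched on by Gs-coupled receptors, among them those for adenosine and prostaglandin E2. It releases the catalytic subunits of PKA from the regulatory subunits that inhibit them, the freed kinase phosphorylates the transcription factor CREB1, and CREB1 drives genes with a cAMP response element (CRE) in their promoters. Phosphodiesterases end the signal by hydrolysing cAMP. In T cells cAMP restrains activation through the antigen receptor, Treg are known for a high cAMP content, and CD73 makes extracellular adenosine, a ligand of cAMP-raising receptors.

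The 4 phosphodiesterases hydrolyse cAMP at a catalytic centre built on a conserved metal-binding motif of histidines and aspartates, and the coding sequence around it shows how close the 4 genes are where their products share their chemistry. The following stretches were read from the longest open reading frame of GENCODE M21 transcripts, 5′ to 3′, with the codons of the motif in capitals.
Pde3b: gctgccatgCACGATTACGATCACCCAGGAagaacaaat
Pde4b: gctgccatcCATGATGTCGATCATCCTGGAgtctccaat
Pde4d: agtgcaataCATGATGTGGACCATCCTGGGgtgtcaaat
Pde7a: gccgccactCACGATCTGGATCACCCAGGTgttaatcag
Over these 39 bases Pde4b and Pde4d were identical at 30 bases (76.9%), the closest pair, and Pde4d and Pde7a at 21 (53.8%), the least alike. The identity of Pde3b was 71.8% to Pde4b, 64.1% to Pde7a and 59.0% to Pde4d. Across whole transcripts the genes are distinct enough for reads to be assigned: no 50-base window of Pde4b, Pde4d, Prkar1a, Prkacb or Adcy7 occurred in a transcript of another gene, and the share was 0.154% for Pde3b, 0.0256% for Pde7a and 0.244% for Creb1.

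The kinase step is marked by a pair of short sites, shown because they are where PKA is held and where it acts. Prkar1a encodes a pseudosubstrate that occupies the catalytic site, found at residues 96 to 100 of its 381-residue frame, and Creb1 encodes the site that PKA phosphorylates, found at residues 130 to 134 of its 341-residue frame. The codons of each site are in capitals.
Prkar1a: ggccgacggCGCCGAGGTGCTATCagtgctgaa
Creb1: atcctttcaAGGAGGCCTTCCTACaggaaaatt

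Promoters of the 9 genes were searched for the CRE (TGACGTCA, its own reverse complement) and for the shorter CRE element TGACG on either strand, which the full CRE contains. RefSeq windows on GRCm38.p6, from 250 bases before to 50 after a start site, were read for 6 of the 9 genes, 18 windows in all, and Pde3b, Pde7a and Crem are named only. A full CRE was in 2 overlapping windows of Prkar1a, against 1.79% of 32851 promoters. The shorter element without a full CRE was in 4 windows, of Prkacb, Pde4b, Adcy7 and Prkar1a. Of all promoters 20.8% held that element, with or without a full CRE. The Prkar1a window with its CRE 49 bases upstream of the start site and a Pde4b window with the shorter element 34 bases upstream are shown, these motifs in capitals, for a kinase subunit and a phosphodiesterase of the same pathway. The Prkar1a window also holds the shorter element outside its CRE, left in lower case. A match in letters is a description and not a measured binding site.
Prkar1a, chr11:109650699-109650998, plus strand: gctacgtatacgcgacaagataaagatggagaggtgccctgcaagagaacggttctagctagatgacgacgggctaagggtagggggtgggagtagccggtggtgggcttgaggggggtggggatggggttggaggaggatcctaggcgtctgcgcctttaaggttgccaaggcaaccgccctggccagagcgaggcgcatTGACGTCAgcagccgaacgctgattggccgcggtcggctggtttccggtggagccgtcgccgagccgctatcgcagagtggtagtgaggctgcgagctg
Pde4b, chr4:102421305-102421604, plus strand: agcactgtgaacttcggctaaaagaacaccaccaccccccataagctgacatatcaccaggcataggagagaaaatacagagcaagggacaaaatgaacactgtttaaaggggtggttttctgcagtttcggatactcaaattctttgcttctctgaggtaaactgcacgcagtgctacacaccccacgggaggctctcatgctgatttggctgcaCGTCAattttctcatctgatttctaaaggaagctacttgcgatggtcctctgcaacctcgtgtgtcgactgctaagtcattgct

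Levels are log2 CPM, the log2 of counts scaled to a common library size, on which a difference of 1 is a doubling. They come from 2 deposited tables, with CD73+ and CD73- Treg in the first and tdTomato- Treg and Tconv in the second. The tables appear to have been scaled separately, which the labels do not state. Tests were therefore made only within a table, and levels across tables are set side by side. Effective depth, read from the lowest value of each library, was 11000000 to 21400000 counts, and every one of the 9 genes had 272 to 6122 counts in each library. A level of 3 counts lay at a log2 CPM of −2.61 to −1.65, and this limit covers counting error only. The gates held in the RNA: Foxp3, the Treg transcription factor, averaged 9.16 in CD73- Treg, 9.19 in CD73+ Treg, 9.11 in tdTomato- Treg and 0.18 in Tconv, and Nt5e averaged 5.54, 7.29, 8.21 and 3.88. Summed levels of 5 Treg markers were 3340 to 3920 CPM in the Treg libraries and 205 to 217 CPM in Tconv, and 5 T cell markers summed to 1390 to 2280 CPM in every library. B cell markers summed to at most 10.7 CPM, thymic epithelial markers to at most 8.24 CPM and myeloid markers to at most 37.5 CPM. The B cell and epithelial sums were higher in every tdTomato- Treg library (8.38 to 10.7 and 5.91 to 8.24 CPM) than in any other library, the myeloid sum was 27.7 to 37.5 CPM there and 17.3 to 28.4 CPM elsewhere, and their part in the results was not tested. In these bulk samples fewer cells of a type and less RNA per cell cannot be told apart.

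Pde3b was the member that differed most between the groups. It encodes a membrane-associated phosphodiesterase that is inhibited by cGMP and is known for its role downstream of insulin in fat cells, and it lies on chromosome 7 from 114415281 to 114539251 on the plus strand (mm10). In Tconv its log2 CPM was 7.85, 7.82 and 7.79 in replicates A, B and D. In tdTomato- Treg it was 4.62, 4.26 and 4.62, so every Treg library lay far under every Tconv library. The difference, tdTomato- Treg minus Tconv, was −3.32 ± 0.15 on the log2 scale (SE; 95% interval −3.64 to −3.00; limma with Benjamini-Hochberg adjustment over all genes, adjusted p = 1.01e-11), 9.99-fold lower, and lower in all 3 libraries. The authors' deposited table gives −3.33 with an adjusted p of 2.6e-11.

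Within newly generated Treg, Pde3b was 5.20, 5.03 and 5.35 in the CD73- libraries and 4.82, 4.15 and 4.89 in the CD73+ libraries. The groups did not overlap, replicate B was the lowest library of both, and the CD73+ replicate B stood apart from the other CD73+ libraries. CD73+ minus CD73- was −0.57 ± 0.15 (SE; 95% interval −0.89 to −0.26), 1.49-fold lower, and missed the threshold of 0.05 in limma (adjusted p = 0.0528). The authors' deposited table gives −0.55 with an adjusted p of 0.101. With the library letter as a replicate block the same difference had an SE of 0.10 and an adjusted p of 0.00196. Without the CD73+ replicate B it was −0.34 (adjusted p = 0.181), without the CD73- replicate B −0.66 (adjusted p = 0.0386), and without the CD73+ replicate D −0.71 (adjusted p = 0.0286). The difference was below 0 in every fit that was run, and its call changed with the block and with single libraries.

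**Figure D1:**
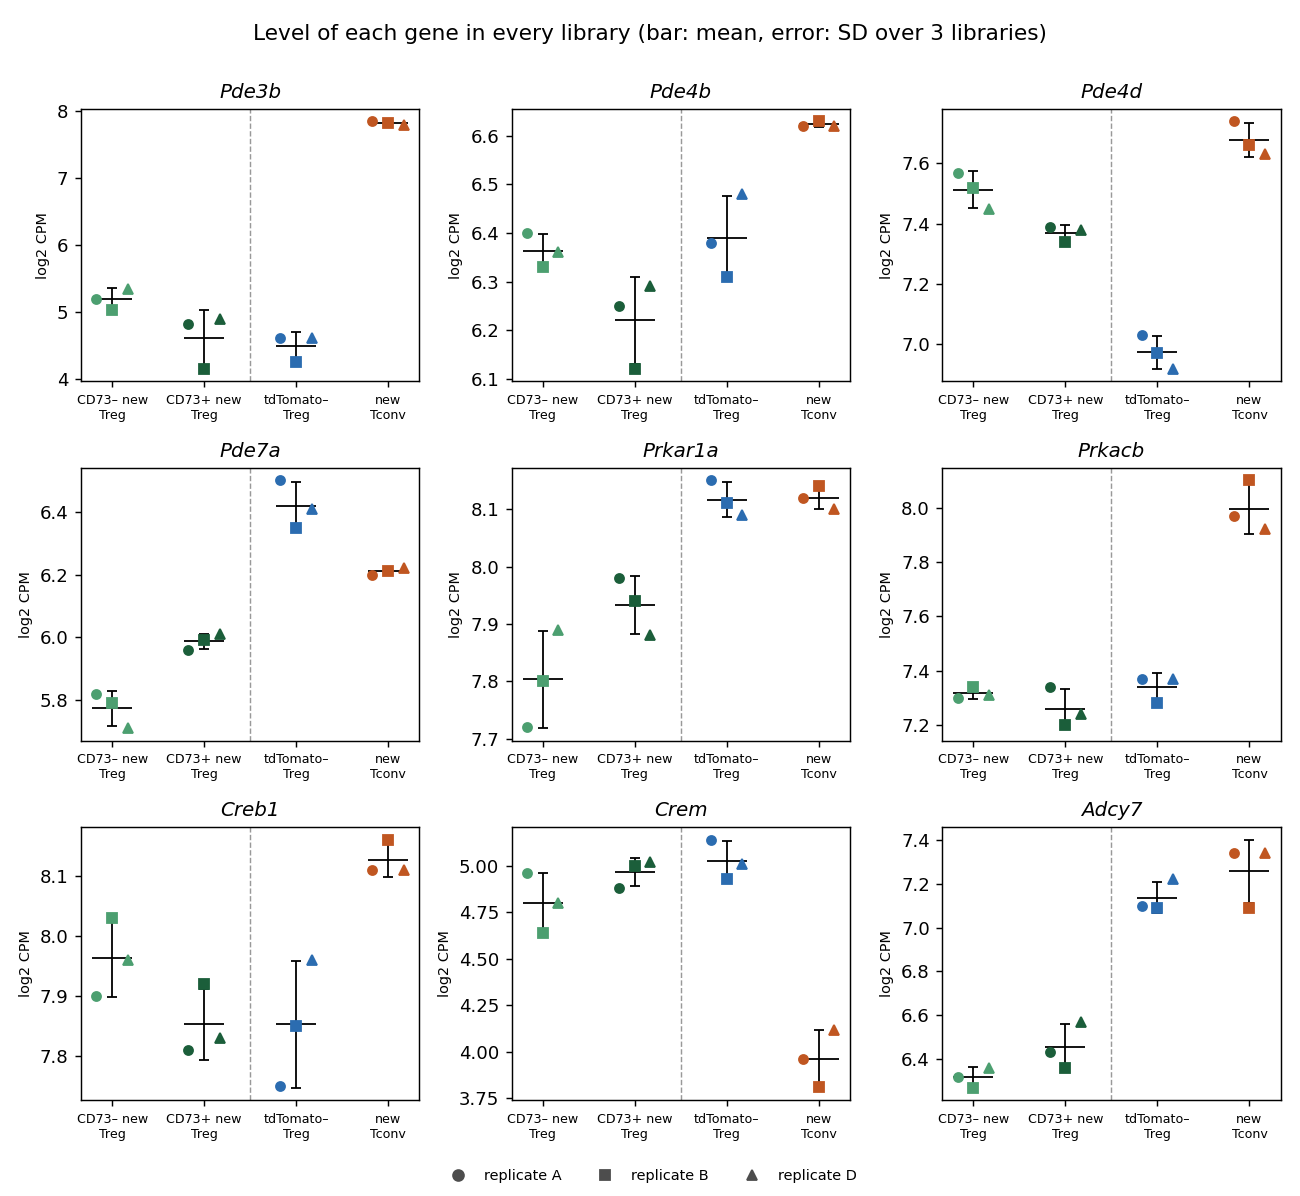
Log2 CPM (vertical axis, a separate range for each gene) of the 9 genes in each library; marker shapes give replicates A, B and D, horizontal bars the mean and error bars the SD over 3 libraries, and the dashed line parts the separately scaled tables. Pde3b lay at 7.79 to 7.85 in Tconv and at 4.15 to 5.35 in the Treg libraries, and Crem showed the opposite order.

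Pde4d and Pde4b were also lower in tdTomato- Treg, by less than Pde3b. Pde4d, a cAMP-specific enzyme of the rolipram-sensitive family, lies on chromosome 13 from 108449948 to 109953461 on the plus strand. Its log2 CPM was 7.74, 7.66 and 7.63 in Tconv and 7.03, 6.97 and 6.92 in tdTomato- Treg. No library of one group reached the other, and the difference was −0.70 ± 0.05 (SE; adjusted p = 4.64e-09), 1.63-fold lower. In CD73- Treg Pde4d was 7.57, 7.52 and 7.45, and in CD73+ Treg 7.39, 7.34 and 7.38. The groups were again apart, but the difference of −0.14 ± 0.05 did not pass (adjusted p = 0.154; 95% interval −0.25 to −0.04).

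Pde4b, a second gene of that family and the one tied to antigen receptor signalling in T cells, lies on chromosome 4 from 102087543 to 102607259 on the plus strand. It was 6.62, 6.63 and 6.62 in Tconv and 6.38, 6.31 and 6.48 in tdTomato- Treg, a difference of −0.23 ± 0.06 (SE; adjusted p = 0.00376), 1.18-fold lower. All 3 Treg libraries lay under all 3 Tconv libraries, and without the 4 libraries of letter A the adjusted p was 0.0555. Between newly generated Treg it was 6.40, 6.33 and 6.36 in CD73- and 6.25, 6.12 and 6.29 in CD73+ libraries, a difference of −0.14 ± 0.06 that did not pass (adjusted p = 0.236; 95% interval −0.27 to −0.02).

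Pde7a was the exception among the 4. It encodes a cAMP-specific enzyme that rolipram does not inhibit, found in T cells, and lies on chromosome 3 from 19223108 to 19311322 on the minus strand. It was 6.20, 6.21 and 6.22 in Tconv and 6.50, 6.35 and 6.41 in tdTomato- Treg. Every Treg library was higher, and the difference was 0.21 ± 0.06 (SE; adjusted p = 0.00589), 1.16-fold. Without the 4 libraries of letter A it was 0.17 (adjusted p = 0.119). In newly generated Treg it was 5.82, 5.79 and 5.71 in CD73- libraries and 5.96, 5.99 and 6.01 in CD73+ libraries, again without overlap. That difference was also 0.21 ± 0.06 and missed the threshold (adjusted p = 0.0667), with an adjusted p of 0.0366 under the replicate block.

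**Figure D2:**
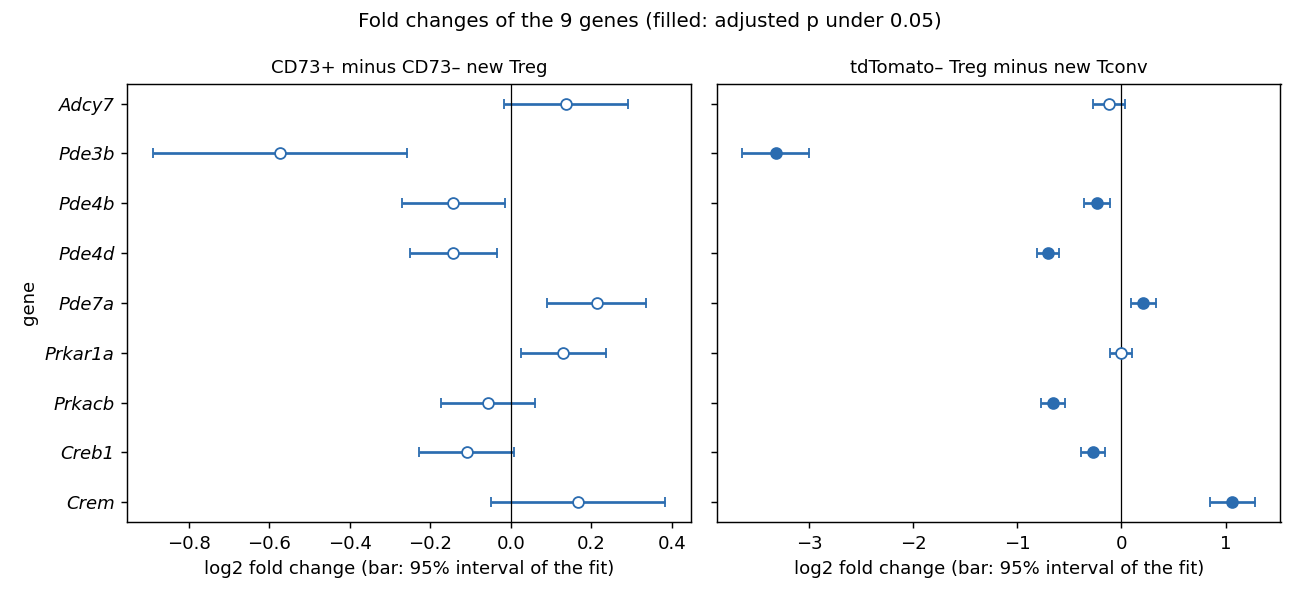
Log2 difference of each of the 9 genes (horizontal axis) in CD73+ minus CD73- newly generated Treg (left) and tdTomato- Treg minus Tconv (right), with 95% intervals of the fit and filled points for an adjusted p under 0.05; the horizontal ranges of the panels differ. No gene is filled on the left, where 2.47% of all tested genes passed, and on the right, where 52.1% passed, 5 are lower and 2 higher, from −3.32 for Pde3b to 1.06 for Crem.

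Other cAMP-hydrolysing phosphodiesterases also passed the filter on low values. Of all 11 that were tested, 6 were higher (Pde1b, Pde2a, Pde4a, Pde7a, Pde7b and Pde8a) and 3 lower (Pde3b, Pde4b and Pde4d) in tdTomato- Treg than in Tconv. Pde4c and Pde11a did not pass, and the median difference of the 11 was 0.21. Of the 6, Pde2a and Pde7b met the filter on low values only through Treg libraries. Over all 11198 genes tested the share past the threshold was 52.1%, with 26.4% higher and 25.7% lower, and the median difference was −0.01. Pde2a, an enzyme that cGMP stimulates, was −0.02, −0.56 and 2.13 in Tconv and 5.17, 4.15 and 4.64 in tdTomato- Treg. Because of that filter, this difference is given as values with no test. Tconv replicate D stood above the other Tconv libraries and still below every tdTomato- Treg library. Pde2a was 1.59 ± 0.49 in CD73- and 2.60 ± 0.76 in CD73+ Treg (SD, n = 3), and that difference of 1.01 did not pass (limma, adjusted p = 0.339).

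Pde7b, the close relative of Pde7a, was 0.08, 0.36 and −0.52 in Tconv and 2.20, 2.36 and 2.86 in tdTomato- Treg. It met the filter on low values only through Treg libraries, so its difference is given as values with no test. Pde4a, of the same family as Pde4b and Pde4d, moved against both of them. Its level was 1.56, 1.40 and 1.63 in Tconv and 3.18, 3.07 and 2.80 in tdTomato- Treg, a difference of 1.49 ± 0.14 (SE, limma, adjusted p = 1.53e-07). Pde8a, a high-affinity cAMP enzyme, differed by 1.60 ± 0.25 (adjusted p = 4.93e-05). Pde1b, stimulated by calcium and calmodulin, differed by 0.45 ± 0.14 (adjusted p = 0.0136), and without the Tconv replicate B by 0.35 (adjusted p = 0.0691), while without the tdTomato- Treg replicate A the adjusted p was 0.0523. Pde4c averaged 1.51 in tdTomato- Treg and 1.91 in Tconv, and Pde11a averaged 2.64 in both. Of the 2 tested genes listed as cGMP phosphodiesterases, Pde5a, a cGMP-specific enzyme, averaged 0.63 in tdTomato- Treg against 1.63 in Tconv (adjusted p = 0.0731). Pde6d was higher in tdTomato- Treg (3.61 against 2.90, adjusted p = 0.000173); despite its name it encodes a chaperone of prenylated proteins and not a phosphodiesterase.

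Between CD73+ and CD73- newly generated Treg none of these 11 genes passed in limma, against 2.47% of 11170 genes tested, 1.78% higher and 0.689% lower. That share is a count of 276 genes, which was 100 without the CD73+ replicate B and 369 without the CD73- replicate B. At an unadjusted p under 0.05, 1 was higher (Pde7a) and 3 were lower (Pde3b, Pde4b and Pde4d), where 9.68% of all tested genes were higher and 7.49% lower. The direction of each of those 4 was the same as in tdTomato- Treg against Tconv. These comparisons share no library, and a test of whether the genes go together was not made.

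**Figure D3:**
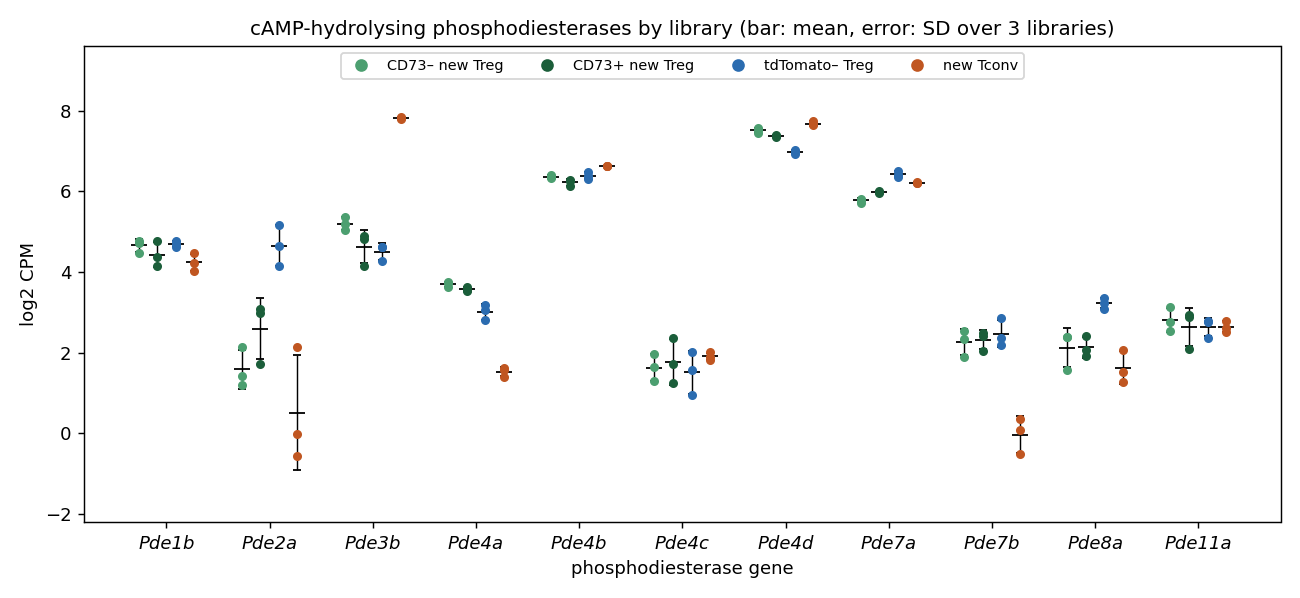
Log2 CPM (vertical axis) of the 11 tested cAMP-hydrolysing phosphodiesterases in every library, coloured by group, with the mean as a bar and the SD over 3 libraries as an error bar. Pde3b in Tconv, at 7.79 to 7.85, stands over its own level in Treg, while Pde2a, Pde4a and Pde7b lie higher in tdTomato- Treg than in Tconv.

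Levels were also divided by the joined length of all annotated exons of each gene. Which transcript forms these cells express was not measured. A gene with many unused exons would come out too low, so the order of genes per kb is approximate. In Tconv Pde3b had 4.63 log2 CPM per kb, the highest of the 4 phosphodiesterases, ahead of Pde4d at 4.09, Pde7a at 3.26 and Pde4b at 3.22. In every Treg group Pde3b was the lowest of the 9 genes per kb, at 2.01 in CD73-, 1.43 in CD73+ and 1.31 in tdTomato- Treg. There Pde4d led the 4 in CD73- (3.93) and CD73+ Treg (3.78), and in tdTomato- Treg Pde7a (3.47) and Pde4d (3.39) were close to each other. Prkar1a was the highest of the 9 per kb in all groups, at 5.69 to 6.01.

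Ratios of genes within a library do not depend on how that library was scaled, so they can be read across all 4 groups. Pde3b over Pde4b was 1.23, 1.19 and 1.17 on the log2 scale in Tconv, −1.20, −1.30 and −1.01 in CD73- Treg, −1.43, −1.97 and −1.40 in CD73+ Treg and −1.76, −2.05 and −1.86 in tdTomato- Treg. The sign of the ratio separated the 3 Tconv libraries from all 9 Treg libraries, and CD73- Treg lay above CD73+ Treg without overlap. Pde4d over Pde4b was 1.15 ± 0.05 in CD73-, 1.15 ± 0.07 in CD73+ Treg and 1.05 ± 0.06 in Tconv (SD, n = 3), and 0.58 ± 0.12 in tdTomato- Treg alone lay apart, with its highest library at 0.66 and the lowest of the others at 1.01. These ratios are descriptions with no test.

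**Figure D4:**
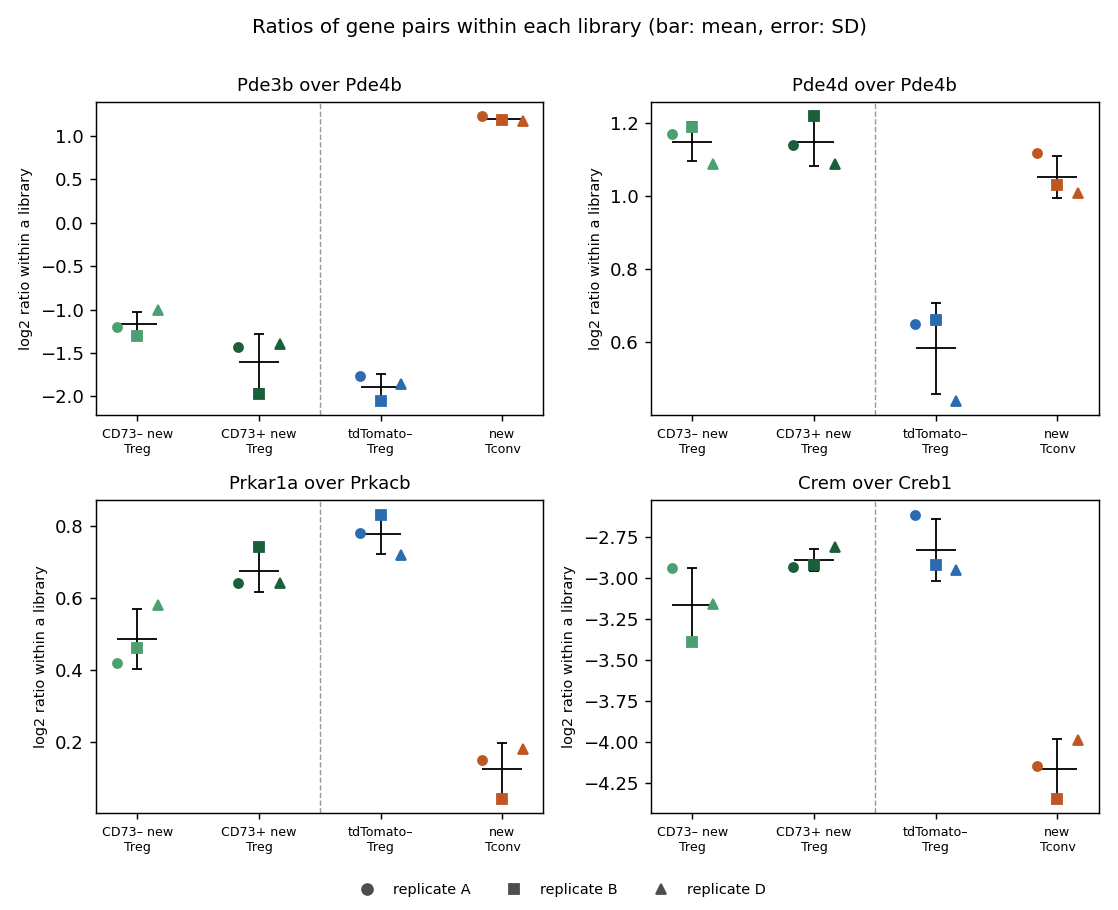
Log2 ratio of gene pairs within each library (vertical axis, a separate range for each pair), with the mean as a bar and the SD over 3 libraries as an error bar; marker shapes give replicates A, B and D. Pde3b over Pde4b is above 0 in Tconv only, and Crem over Creb1 is lowest in Tconv, at −4.35 to −3.99.

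Adcy7, an adenylyl cyclase that is abundant in blood cells and is enhanced by G protein βγ subunits, made no difference that passed in either comparison. It lies on chromosome 8 from 88272403 to 88329962 on the plus strand. It was 7.34, 7.09 and 7.34 in Tconv and 7.10, 7.09 and 7.22 in tdTomato- Treg, which overlapped (−0.12 ± 0.07 SE; adjusted p = 0.18; 95% interval −0.27 to 0.03). Without Tconv replicate B, the lowest of its group, the difference was −0.20 (adjusted p = 0.0185). In newly generated Treg it was 6.32, 6.27 and 6.36 in CD73- and 6.43, 6.36 and 6.57 in CD73+ libraries, with a difference of 0.14 ± 0.07 (adjusted p = 0.35; 95% interval −0.02 to 0.29).

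Of the 3 other cyclases tested, Adcy6 and Adcy3 passed. Adcy6 was 7.09, 6.87 and 7.10 in Tconv and 6.00, 6.12 and 5.90 in tdTomato- Treg, 2.02-fold lower (−1.01 ± 0.09 SE; adjusted p = 3.24e-08). Adcy3 was higher in tdTomato- Treg by 0.56 ± 0.10 (adjusted p = 0.000172), and Adcy9 averaged 2.23 against 2.17. In CD73+ against CD73- Treg, Adcy6 was 6.86, 6.68 and 6.97 against 7.14, 7.01 and 7.24, apart but not past the threshold (−0.29 ± 0.08; adjusted p = 0.0842, and 0.0208 with the replicate block). Per kb of joined exons Adcy6 was the highest cyclase in newly generated Treg, at 4.37 in CD73- and 4.07 in CD73+ libraries. Adcy7 was at 3.57 and 3.70 there, and the order is approximate. In tdTomato- Treg Adcy7 led with 4.39 against 3.24 for Adcy6.

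Upstream of the cyclases, Gs-coupled receptors differed both ways between tdTomato- Treg and Tconv. Of 10 tested, 4 were higher in tdTomato- Treg, Ptger2, Ptger4, Adora2a and Gpr174, and 4 were lower, Vipr1, Ptgir, Calcrl and Gpr65, beside 26.4% and 25.7% of all tested genes. Ptger2, a receptor of prostaglandin E2, was 1.31, 1.12 and 1.43 in Tconv and 5.54, 5.71 and 5.57 in tdTomato- Treg (4.32 ± 0.12 SE; adjusted p = 1.32e-14). Vipr1, the receptor of vasoactive intestinal peptide, went the other way, from 6.64, 6.51 and 6.52 in Tconv to 2.55, 2.78 and 2.67 in tdTomato- Treg (−3.89 ± 0.12; adjusted p = 5.87e-14). Neither gene's groups came near each other. Ptger4, the second prostaglandin E2 receptor, was higher by 1.30 ± 0.06 (adjusted p = 1.84e-11), while Ptgir, for prostacyclin, was lower (2.96 against 4.66 on average), as was Calcrl, for adrenomedullin and related peptides (4.93 against 5.81).

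Adora2a encodes the high-affinity Gs-coupled receptor of adenosine. It was 2.55, 2.37 and 2.01 in Tconv and 4.76, 4.66 and 4.83 in tdTomato- Treg (2.44 ± 0.17 SE; adjusted p = 4.12e-09), and 2.92, 2.75 and 3.50 in CD73- against 3.73, 3.69 and 3.70 in CD73+ Treg. The last groups did not overlap. Their difference of 0.65 ± 0.17 missed the threshold (adjusted p = 0.0597) and passed with the replicate block (adjusted p = 0.0276) and without the CD73- replicate D (0.87, adjusted p = 0.0101).

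Gnas, the gene of the stimulatory G protein α subunit, was the pathway gene that passed in both comparisons. It was 7.81, 7.80 and 7.86 in CD73- and 8.08, 8.11 and 7.99 in CD73+ Treg (0.24 ± 0.05 SE; adjusted p = 0.0143), and 7.81, 7.87 and 7.83 in Tconv and 8.12, 8.10 and 8.03 in tdTomato- Treg (0.25 ± 0.05; adjusted p = 0.000316). The groups were apart both times. The first call was lost without the CD73+ replicate A (adjusted p = 0.0643) and without the CD73+ replicate B (adjusted p = 0.0828). Gnai3, an inhibitory α subunit, was lower in tdTomato- Treg (7.00 against 7.14, adjusted p = 0.0454), a call lost without any single Tconv library (adjusted p from 0.0501 to 0.107) and without tdTomato- Treg replicate A (0.125) or B (0.147).

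Of the PKA subunits among the 9 genes, the catalytic one fell in tdTomato- Treg and the regulatory one did not pass. Prkacb, a catalytic subunit on chromosome 3 from 146729574 to 146812990 (minus strand), was 7.97, 8.10 and 7.92 in Tconv and 7.37, 7.28 and 7.37 in tdTomato- Treg. The groups did not overlap and the difference was −0.66 ± 0.06 (SE; adjusted p = 3.39e-08), 1.58-fold lower. Prkar1a, the regulatory subunit whose pseudosubstrate is printed above, lies on chromosome 11 from 109649405 to 109669656 (plus strand). It was 8.12, 8.14 and 8.10 in Tconv and 8.15, 8.11 and 8.09 in tdTomato- Treg, which overlapped, with a difference of −0.00 ± 0.05 (adjusted p = 0.962; 95% interval −0.11 to 0.10).

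Prkar1a over Prkacb within a library was accordingly 0.12 ± 0.07 in Tconv and 0.78 ± 0.06 in tdTomato- Treg (SD, n = 3), and it was 0.49 ± 0.08 in CD73- and 0.67 ± 0.06 in CD73+ Treg. The lowest Treg library was at 0.42 and the highest Tconv library at 0.18. In newly generated Treg, neither gene passed: Prkar1a was 7.72, 7.80 and 7.89 in CD73- and 7.98, 7.94 and 7.88 in CD73+ libraries (0.13 ± 0.05 SE; adjusted p = 0.189), and Prkacb was 7.30, 7.34 and 7.31 against 7.34, 7.20 and 7.24 (−0.06 ± 0.06; adjusted p = 0.649). For both genes the groups overlapped.

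Of the 4 other PKA subunits, Prkaca, a second catalytic subunit, fell from 5.39 in Tconv to 5.18 in tdTomato- Treg (adjusted p = 0.0194), a call lost without tdTomato- Treg replicate D (adjusted p = 0.0957) or Tconv replicate A (adjusted p = 0.0872). Prkar1b, a regulatory subunit, averaged 1.42 in tdTomato- Treg and −1.47 in Tconv, with Tconv replicate D at −2.36, the level of 3 counts in that library. Prkar1b met the filter on low values only through Treg libraries, so its difference is given as values with no test. Prkar2a averaged 3.64 against 3.27 and Prkar2b 1.62 against 1.86, and neither passed. The PKA inhibitor gene Pkib was 0.60, 0.14 and 0.04 in Tconv and −3.18, −1.78 and −2.21 in tdTomato- Treg, where it was near the level of 3 counts. It met the filter on low values only through the Tconv libraries, so its difference is given as values with no test.

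A-kinase anchoring proteins tether PKA to its sites of action. Of 12 tested, 5 were higher in tdTomato- Treg, led by Akap13 (10.59 against 9.89, adjusted p = 7.03e-10), Akap7 (2.53 against 0.70) and Akap2 (4.55 against 3.81), and 2 were lower, Akap1 (2.57 against 3.56) and Akap11 (7.29 against 7.51, adjusted p = 0.0107, and 0.0618 without the 4 libraries of letter D). That is 7 of 12, near the 52.1% of all tested genes that passed. Of the Epac genes, which encode cAMP-gated exchange factors that act without PKA, Rapgef4 was 5.82, 5.91 and 5.95 in Tconv and 4.24, 4.27 and 4.24 in tdTomato- Treg, 3.12-fold lower (−1.64 ± 0.10 SE; adjusted p = 6.45e-10). Its groups were far apart. In newly generated Treg it was 4.39, 4.55 and 4.47 in CD73- and 4.22, 3.88 and 4.32 in CD73+ libraries, which did not overlap and did not pass (−0.33 ± 0.10; adjusted p = 0.104).

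Crem rose where Creb1 fell. Crem encodes activator and repressor forms related to CREB1, among them a short repressor induced by cAMP itself, and the gene-level counts do not part these forms. It was 3.96, 3.81 and 4.12 in Tconv and 5.14, 4.93 and 5.01 in tdTomato- Treg. No library overlapped, and the difference was 1.06 ± 0.10 (SE; adjusted p = 1.86e-07), 2.09-fold higher in tdTomato- Treg. The transcript sequence of Crem is partly shared: 5.72% of its 50-base windows occur in transcripts of another gene, Gm6225. Creb1, on chromosome 1 from 64532645 to 64604548 (plus strand), was 8.11, 8.16 and 8.11 in Tconv and 7.75, 7.85 and 7.96 in tdTomato- Treg. Its groups were apart too, and the difference was −0.27 ± 0.06 (adjusted p = 0.000608), 1.21-fold lower.

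Crem over Creb1 within a library was −4.16 ± 0.18 in Tconv, −3.16 ± 0.23 in CD73-, −2.89 ± 0.07 in CD73+ and −2.83 ± 0.19 in tdTomato- Treg (SD, n = 3). Every Treg library, at −3.39 or higher, lay above every Tconv library. Between newly generated Treg neither gene passed. Crem was 4.96, 4.64 and 4.80 in CD73- and 4.88, 5.0 and 5.02 in CD73+ libraries (0.17 ± 0.10 SE; adjusted p = 0.43), and Creb1 was 7.90, 8.03 and 7.96 against 7.81, 7.92 and 7.83 (−0.11 ± 0.06; adjusted p = 0.331). For both genes the groups overlapped.

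Of 11 genes of the CREB family, its coactivators and the salt-inducible kinases that restrain those coactivators, 5 were higher in tdTomato- Treg (Crem, Sik2, Crtc2, Crtc3 and Sik3) and 2 lower (Atf1 and Creb1), 7 in all, where 52.1% of all tested genes passed. Sik2 was 5.77, 5.81 and 5.70 in Tconv and 6.41, 6.42 and 6.53 in tdTomato- Treg (0.69 ± 0.06 SE; adjusted p = 1.14e-07). Crtc2, a CREB coactivator, was higher by 0.39 ± 0.07, and Atf1, a relative of Creb1, averaged 5.66 against 6.05. Without Tconv replicate B the calls of Crtc3 (adjusted p = 0.0742) and Sik3 (adjusted p = 0.0592) were lost, and without tdTomato- Treg replicate D that of Sik3 (adjusted p = 0.0716). Of 12 genes known as CREB targets, 8 were higher, where 26.4% of all tested genes were, and none was lower (limma, where 25.7% of all genes were; none lower at an unadjusted p under 0.05, which 28.5% of all genes met). Their median difference was 0.89. Areg, 1 of the 8, reached the filter level in Treg libraries only. They included Nr4a3 (7.31 ± 0.03 against 6.40 ± 0.12; SD, n = 3) and Nr4a2 (4.73 ± 0.33 against 2.95 ± 0.63), nuclear receptors induced by many stimuli, and Rgs2 (6.84 ± 0.17 against 6.17 ± 0.25), a brake on G protein signalling.

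Dusp1, Fos and Fosb, 3 of the 8, are also on the list used here of genes that cell isolation induces. Of 15 such handling genes tested, 6 were higher and 1 lower in tdTomato- Treg. Of all tested genes 26.4% were higher and 25.7% lower, 52.1% in either direction. The 6 and the 1 were immediate early genes, and no heat shock gene of the list passed. The summed level of the list was 2540 to 4300 CPM in tdTomato- Treg and 1420 to 2850 CPM in Tconv. It was 1470 to 2850 CPM in CD73- and 1640 to 3020 CPM in CD73+ Treg. Fos was highest in replicate D and lowest in replicate B of every group, at 7.73 and 5.92 in Tconv and 8.96 and 7.76 in tdTomato- Treg, and its call (adjusted p = 0.0116) was lost without tdTomato- Treg replicate D (0.0693) or Tconv replicate B (0.0648). Nr4a2 and Rgs2, which are among the 8 but not on the list, were also lowest in replicate B of every group. Areg, Nr4a3 and Per2, also not on it, were not. Absence from the list does not show that a gene is free of handling. The part of handling in the differences of the CREB targets, or of Crem, was not tested.

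**Figure D5:**
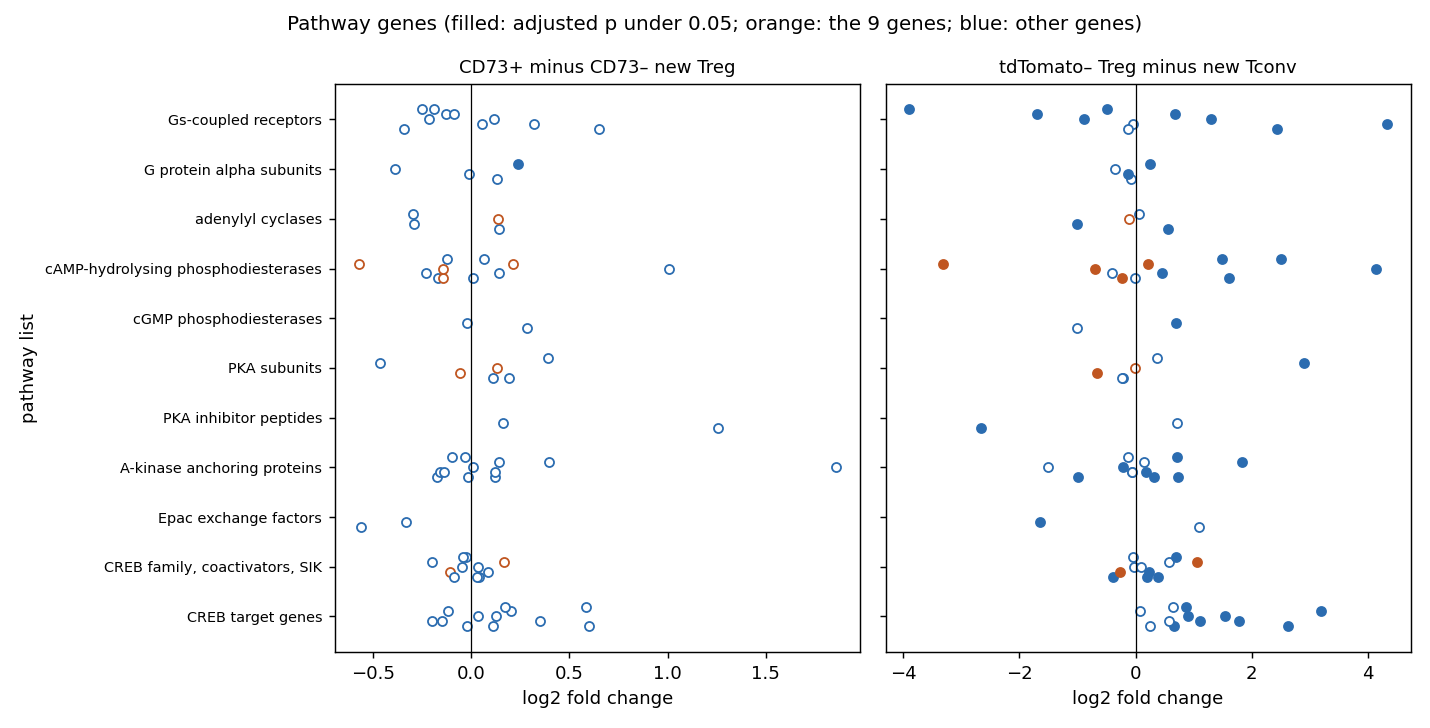
Log2 difference (horizontal axis) of each tested pathway gene by list (vertical axis) in CD73+ minus CD73- newly generated Treg (left) and tdTomato- Treg minus Tconv (right); filled points have an adjusted p under 0.05, and the 9 genes are orange. The panels differ in range. Gnas alone is filled on the left, where 2.47% of all tested genes passed. On the right 32 higher and 17 lower genes are filled, beside 26.4% and 25.7% of all tested genes. Of these, Areg, Prkar1b, Pde2a and Pde7b met the filter only through Treg libraries and Pkib only through Tconv libraries.

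Counted over the 9 genes, 0 passed in CD73+ against CD73- newly generated Treg in limma, with 2 higher and 3 lower at an unadjusted p under 0.05, which 9.68% and 7.49% of all tested genes met, and 4 did not overlap between the groups, where 18.2% of all tested genes did not. In tdTomato- Treg against Tconv 2 were higher and 5 lower, and 7 of 9 did not overlap, where 60.9% of all tested genes did not and 52.1% passed the threshold. The median difference of the 9 was −0.06 in the first comparison and −0.23 in the second. Over all 75 pathway genes tested, of 86 in the table, 1 was higher and 0 lower in the first comparison in limma (8 and 11 at an unadjusted p under 0.05). In the second, 32 were higher and 17 lower, beside 26.4% and 25.7% of all tested genes. Pkib was among the 17, and Areg, Prkar1b, Pde2a and Pde7b were among the 32. Each of these met the filter on low values only through the cells in which it was higher. All 9 genes were above the filter level in all 12 libraries. The groups of the second comparison differ in lineage, in tdTomato and in the CD73 gate at once, and these cannot be told apart.

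The genes whose pattern was most like that of Pde3b over the 12 libraries, each gene centred within its table, were Arl4c, Satb1, Add3, Mctp2 and Apol7e, with Pearson r of 0.995 to 0.996 among 10777 genes compared. The measure mostly follows the tdTomato- Treg and Tconv step, which the libraries share. Satb1, a chromatin organiser of developing T cells, differed by −1.69 in tdTomato- Treg against Tconv and by −0.32 in CD73+ against CD73- Treg. Mctp2 was nearest to Pde3b in size, at −3.29 and −0.68.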

How the data were processed

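RNA was sequenced from 12 libraries of sorted mouse thymocytes, with TRIzol extraction and KAPA RNA HyperPrep libraries, per the labels. STAR, RSEM, limma and mm10 stand in the submitters' processing notes; versions and strand setting are not given in the sources used here. Deposited by the authors are log2 CPM per gene in 2 tables of 6 libraries, and their own log2 fold changes and adjusted p-values. Separate scaling of the 2 tables was inferred from the values. The deposited score columns, the authors' test statistics per the file headers, were not used. Of 13207 gene IDs, 13077 matched GENCODE M21 (GRCm38, the assembly of mm10), the source of positions, exonic lengths and transcripts. No coding gene overlaps any of the 9. Pde7a, Prkacb and Crem each overlap 1 non-coding gene on the other strand. Pde4d overlaps 5 non-coding genes, 2 of them on the other strand and the rest on its own.

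The deposited log2 values of all 12 libraries entered 1 fit with 4 group means (limma 3.58.1, R 4.3.3, empirical Bayes with an intensity trend, no block), keeping genes whose log2 CPM reached 0 in 3 or more libraries. Benjamini-Hochberg adjustment ran over all genes tested in a comparison, with a threshold of 0.05. The fit was checked on simulated data. All 9 genes were tested in both comparisons. Letters do not state a shared animal; same-letter deviations correlated at 0.146, 0.266 and 0.222 in the first comparison and at 0.117, 0.114 and 0.0536 in the second over 9942 genes, and at 0.0377 to 0.11 over all 11167. Blocked values therefore stand beside the results they change in the first comparison, and for the second in the closing section.

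The 9 genes and the gene lists were chosen with earlier results of these data known. Named are the 9, the sort genes, the tested phosphodiesterases, cyclases and PKA subunits, up to 3 genes per list, direction and comparison by p-value, and the 5 genes most like Pde3b. Alternatives were filters, groups in the fit, block, 2 scalings, log2(CPM + 1), no trend, and leaving out libraries.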

Additional observations from a re-analysis of the deposited data

How the results depend on the processing

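In CD73+ against CD73- newly generated Treg, Pde3b passed under the replicate block (−0.57, adjusted p = 0.00196), with libraries centred on their median (−0.59, adjusted p = 0.0445) and with log2(CPM + 1) (−0.55, adjusted p = 0.0455). With libraries left out it ranged from −0.71 to −0.34. Pde7a passed under the replicate block (0.21, adjusted p = 0.0366). Of the 9 genes, 1 was then higher and 1 lower with the block, 1 was lower with centring and 1 with log2(CPM + 1), and 0 to 1 with libraries left out. Of the pathway genes, 3 were higher and 2 lower with the block, 0 higher without the intensity trend, and 1 lower with centring and 1 with log2(CPM + 1); with libraries left out, 0 to 2 were higher and 0 to 2 lower. Over all genes 276 passed, 658 with the block, 146 with only the 2 groups compared and 107 without the trend. Leaving out a single library gave from 100 (CD73+ replicate B) to 393 (Tconv replicate B). Fewer passed without CD73+ replicate A (105), CD73- replicates A (161) and D (134) and tdTomato- Treg replicate A (172). More passed without CD73- replicate B (369). Dropping a whole letter gave 25 (A), 239 (B) or 41 (D). The cause was not tested.

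In tdTomato- Treg against Tconv the replicate block changed no call among the 9 genes (Pde3b −3.32, adjusted p = 1.48e-15). Among pathway genes it added calls for Sik1 (adjusted p = 3.11e-06), Junb (1.65e-05), Nr4a1 (0.00382), Ep300 (0.0363) and Akap8 (0.0283). With the block 11 of 12 CREB targets were higher, where 3121 of all 11198 tested genes were higher and 3110 lower. With libraries left out Pde4b ranged from −0.28 to −0.19, Pde7a from 0.17 to 0.25 and Adcy7 from −0.20 to −0.06. In the same fits the number of the 9 genes that were higher ranged from 1 to 2, and the number lower from 4 to 6. No called difference of the 9 genes changed sign. That of Prkar1a in tdTomato- Treg against Tconv, −0.00 and not called, was 0.015 with quantile normalisation and ranged from −0.02 to 0.01 with libraries left out. With 3 libraries a group, differences such as that of Pde3b between CD73+ and CD73- Treg lie at the edge of what the test calls.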
